A study of Canis lupus familiaris with 18 samples.

Results

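Recurrent *E2F1* sites in shared active chromatin were 4833 regions of the dog genome, out of 512222 merged *E2F1* regions on the 38 numbered autosomes. They were chosen by the peak lists themselves. All *E2F1* peaks of 6 dogs that overlapped or touched were merged, and a region was kept when at least 5 of the 6 dogs had a peak in it, when its merged length was below 2 kb, and when it overlapped by at least 1 bp a merged *H3K27ac* region with a peak in all 6 dogs. Recurrence, length and this overlap are therefore descriptions of how the sites were chosen. Fold enrichment, the position of the summit, the strength of the *H3K27ac* region and the identity of the dogs were not used.

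The tissue was flash-frozen pons, part of the brainstem, from 6 male dogs aged 12 to 16 years. Of these, 3 were heterozygous for the ancestral allele of a transposable element (TE) insertion in *GTF2I* and are called ancestral, and 3 had only the derived allele without the insertion and are called derived. Each dog contributed 1 *E2F1* and 1 *H3K27ac* *ChIP-Seq* peak list, called in that dog alone. The tissue was bulk and mixed in cell types, the ancestral dogs carried the insertion on a single allele, and differences in cell composition and in binding per cell cannot be told apart. The lists hold no reads, so they give no depth and no counting interval, and a locus without a peak may still be bound. The paper reports low cross-correlation scores for its *E2F1* data and cautions that some binding sites may be missed. Its authors describe unusually high noise in the *E2F1* tracks, and they set stricter limits for calling peaks to compensate. All listed peaks were used here, and the stricter limits were tried as an alternative. Whether this noise takes part in differences between dogs in the presence, width or position of peaks was not tested. The paper names a supplementary table of *ChIP-Seq* library statistics, which was not used here.

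*E2F1* is a transcription factor of the E2F family that binds promoters of genes for DNA replication and cell cycle entry and is held in check by the retinoblastoma protein. In neurons, which no longer divide, it has been studied for its part in aberrant cell cycle re-entry and cell death. *H3K27ac*, acetylation of lysine 27 on histone H3, marks active promoters and enhancers, and its broad peaks can join several such elements into 1 stretch.

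Recurrence was rare among *E2F1* regions. Of the 512222 merged regions, 7272 (1.42%) had a peak in 5 or 6 dogs, whatever their length. Below 2 kb there were 6362 such regions. These divided into the 4833 sites in shared *H3K27ac* regions, 572 that overlapped only *H3K27ac* regions missing in at least 1 dog, and 957 that overlapped no *H3K27ac* peak of any dog. The 957 serve below as the comparison and are called sites outside *H3K27ac*. Of the 4833 sites, 1696 had a peak in all 6 dogs and 3137 in 5. With only *E2F1* peaks of q below 0.0005 and *H3K27ac* peaks of q below 0.05, stricter limits than those of the lists, 2175 sites met the rule. With 1 dog left out and a peak required in at least 4 of the other 5, the count was higher whichever dog was left out, from 5193 without derived dog 2 to 7406 without ancestral dog 1 and 8258 without derived dog 1. The number of dogs required changes here together with the list left out, and their parts cannot be told apart.

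Overlap with shared *H3K27ac* regions rose with the number of dogs. Of all 511110 *E2F1* regions below 2 kb, 163051 (31.9%) overlapped a shared *H3K27ac* region. The share was 27.5% for regions seen in 1 dog, 42.9% in 2, 58.0% in 3, 69.5% in 4, 75.8% in 5 and 76.3% in 6. Median merged length rose alongside, from 238 bp for regions of 1 dog to 1203 bp for regions of 6. Among regions of 900 to 1100 bp the share still ran from 53.6% in 1 dog to 79.8% in 6. At 500 to 700 bp the order was broken at the top, with 68.1% for 5 dogs and 49.7% for 6, and at 700 to 900 bp the shares were 73.5% and 70.2%. These shares are over regions and were not tested.

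The sites were wider than the single peaks that made them. Merged length had a median of 1129 bp and ran from 216 to 1999 bp, with the middle of the distribution between 861 and 1439 bp (quartiles). Only 106 sites (2.19%) were shorter than 500 bp and 1036 (21.4%) were 1500 bp or longer. Sites of all 6 dogs had a median of 1268 bp and sites of 5 dogs 1057 bp. The median site was 2.16 times as long as the median peak within it, and the widest peak in a site was 3.32 times the narrowest (median over sites). Each dog that had a peak had exactly 1 in 2934 sites (60.7%), of which 894 were sites of 6 dogs and 2040 sites of 5, and the most fragmented site held 11 peaks.

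Merging therefore joined peaks that did not always cover a common base. At least 1 base was covered by a peak of every dog that had one in 2771 of the 4833 sites (57.3%). In 1424 sites (29.5%) the best-covered base was 1 dog short of this, in 583 (12.1%) 2 dogs short and in 55 (1.14%) 3 dogs short. For the sites outside *H3K27ac* a common base was present in 632 of 957 (66.0%).

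Peak width differed strongly between dogs. The strongest peak of a dog in a site, by −log10 q, had a median width of 441, 575 and 603 bp for ancestral dogs 1 to 3 and 278, 676 and 361 bp for derived dogs 1 to 3. Derived dog 2 held the widest peak in 1806 sites (37.4%), and derived dog 1 held it in 77 (1.59%) and had the narrowest in 1592 (32.9%). At sites outside *H3K27ac* the medians were 383, 427.5 and 416 bp for the ancestral and 295, 456.5 and 312.5 bp for the derived dogs. Peaks in the shared active chromatin were wider in 5 of 6 dogs, by 107 ± 91.5 bp (SD of the within-dog differences, n = 6; exact two-sided sign-flip test over dogs, p = 0.0625), which did not pass 0.05. Derived dog 1 went the other way, with a difference of −17 bp. The smallest p this test allows with 6 dogs is 0.03125. The difference was smaller between regions closer in length. It was 44.5 ± 49.5 bp below 1 kb (exact sign-flip test, p = 0.125, n = 6 dogs) and 23.1 ± 44.9 bp at 700 to 1100 bp, a range chosen after seeing the data, where ancestral dog 1 also turned, to −28 bp (exact sign-flip test, p = 0.281, n = 6 dogs).

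Summits of different dogs seldom coincided. A summit is the base of highest enrichment that the peak caller gives in each narrow peak, taken as the start of the peak plus its summit offset. The distance between the outermost summits of a site had a median of 425 bp, with quartiles of 229 and 699 bp and extremes of 1 and 1805 bp. All summits fell within 50 bp in 33 sites (0.683%), within 100 bp in 185 (3.83%), within 200 bp in 971 (20.1%) and within 500 bp in 2803 (58.0%). In 419 sites the outermost summits were more than 1000 bp apart. Agreement among some of the dogs was more common, since at least 3 summits shared a window of 100 bp in 3030 sites (62.7%) and at least 4 did in 1412 (29.2%).

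Better-ranked sites had tighter summits. Each peak was given a percentile by −log10 q within its own list, and each site the median over its dogs. In the 1217 sites with the lowest medians, up to the percentile 76.5, the outermost summits were 582 bp apart (median) and 25.1% of sites had a base common to all peaks. In the 1208 sites with the highest medians, from 96.6 upwards, the distance was 242 bp and the share with a common base 89.9%, although these sites were longer, with a median of 1225.5 bp against 1022 bp. This is a description across sites of the same 6 libraries, with no test.

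The distance of each dog's summit from the median summit of the other dogs was then compared with the sites outside *H3K27ac*. Median distances in the sites were 121.5, 96 and 97 bp for ancestral dogs 1 to 3 and 172, 99 and 115 bp for derived dogs 1 to 3. Outside *H3K27ac* they were 81, 66 and 74.5 bp for the ancestral and 86, 68.5 and 78 bp for the derived dogs. Summits were more scattered inside shared *H3K27ac* in all 6 dogs, by 41.1 ± 22.9 bp (SD, n = 6; exact two-sided sign-flip test, p = 0.03125, the smallest possible). Length moved with this result, since the sites outside *H3K27ac* had a median merged length of 804 bp. When both sets were limited to the same 700 to 1100 bp, 1713 sites and 351 sites remained and the difference was 0.333 ± 8.55 bp, positive in 3 of 6 dogs (exact sign-flip test, p = 1). Below 1 kb, with no lower limit, it was 31.25 ± 11.0 bp (exact sign-flip test, p = 0.03125, n = 6 dogs).

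The comparison of scatter therefore depended on the lengths compared. Below 500 bp the outermost summits were 139 bp apart (median) in the sites and 106.5 bp apart outside *H3K27ac*, and at 500 to 1000 bp they were 301 and 272 bp apart. The order turned in longer regions, with 507.5 and 592 bp at 1000 to 1500 bp and 774 and 963 bp at 1500 to 2000 bp. Regions with all summits within 100 bp were the smaller share among the sites in each of these classes, at 22.6% against 45.3% in the shortest, 5.62% against 13.5% and 2.34% against 6.57% in the next, and 1.74% against 3.49% in the longest. These class values were not tested.

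Pairs of dogs showed which lists placed their summits apart. In the 1696 sites of all 6 dogs, the median distance between the summits of 2 dogs was smallest for ancestral dog 2 and derived dog 2, at 88 bp, and largest for ancestral dog 1 and derived dog 1, at 178.5 bp. It was 90 to 121 bp over the 3 pairs of ancestral dogs, 114 to 168.5 bp over the 3 pairs of derived dogs and 88 to 178.5 bp over the 9 mixed pairs. The 5 pairs with derived dog 1 were the 5 most distant, from 160.5 bp upwards. Summit distance therefore followed derived dog 1 and did not separate the genotypes. Where it had a peak, the summit of derived dog 1 was the farthest from the others in 30.3% of sites, against 13.6% to 23.5% for the remaining dogs.

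Most sites lay well inside their *H3K27ac* region, but some only met its edge. Of the 4833 sites, 3492 (72.3%) were wholly inside and 1341 (27.7%) reached beyond it. The median summit over dogs was inside the *H3K27ac* region in 4029 sites (83.4%). In the other 804 (16.6%) it was outside, by a median of 243 bp. Summits of single dogs could still lie inside, as those of derived dogs 2 and 3 did at chr6:6278167-6279493. The overlap was below 100 bp in 81 sites (1.68%), with a minimum of 2 bp. Only 66 sites (1.37%) overlapped more than 1 *H3K27ac* region.

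The 804 sites with the median summit beyond the edge were not weak *E2F1* sites. Their median fold enrichment was 5.49, 6.56 and 8.84 for ancestral dogs 1 to 3 and 4.32, 7.23 and 5.93 for derived dogs 1 to 3. In sites with the summit inside, the medians were 5.08, 5.95 and 7.48 for the ancestral and 4.19, 6.36 and 5.32 for the derived dogs. The value was higher for the sites with outside summits in each of the 6 dogs. They touched shorter *H3K27ac* regions, with a median of 3336.5 bp against 8265 bp for the rest. This split was made after the data were seen and was not tested.

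Merged regions join the *H3K27ac* peaks of 6 dogs, so summits were also placed against the peaks of the same dog. The share of *E2F1* summits inside an *H3K27ac* peak of the same dog was 74.3%, 62.8% and 69.8% for ancestral dogs 1 to 3 and 71.6%, 80.1% and 67.5% for derived dogs 1 to 3. In 2549 sites (52.7%) every dog with an *E2F1* peak had its summit inside its own *H3K27ac* peak, and in 542 sites (11.2%) no dog did. The median summit was covered by *H3K27ac* peaks of all 6 dogs in 2746 sites (56.8%).

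Within the *H3K27ac* regions, the sites lay nearer the centre than other *E2F1* peaks did. Position was measured as the distance of the summit from the centre of the merged region, from 0 at the centre to 1 at the edge, for summits inside a shared region. Its median was 0.427, 0.412 and 0.406 for ancestral dogs 1 to 3 and 0.444, 0.421 and 0.416 for derived dogs 1 to 3. The other *E2F1* peaks in shared regions, 26440 to 59897 per dog, had medians of 0.489, 0.473 and 0.472 for the ancestral and 0.496, 0.482 and 0.495 for the derived dogs. The sites were more central in all 6 dogs, with a difference of −0.0636 ± 0.00876 (SD, n = 6; exact two-sided sign-flip test, p = 0.03125). The share of summits nearer the centre than the edge was 6.90 ± 0.884 percentage points higher (exact sign-flip test, p = 0.03125, n = 6 dogs). The shift is small against a scale that runs from 0 to 1.

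Position depended on the length of the *H3K27ac* region. In regions of 2000 to 5000 bp, 69.3% of sites had their median summit nearer the centre than the edge, against 51.8% of other *E2F1* peaks. In regions of 5000 to 10000 bp the shares were 62.3% and 52.3%, and in regions of 10000 to 20000 bp 55.6% and 52.1%. In longer regions the order turned, with 49.1% and 51.4% at 20000 to 50000 bp and 42.3% and 50.2% above 50000 bp. It also turned below 1000 bp, where the shares were 40.0% and 55.1%. The central placement was thus seen in *H3K27ac* regions between 1000 and 20000 bp long. In absolute terms, the median summit inside a region lay 2030 bp from the nearest edge, and 1005 of 4029 (24.9%) lay within 1000 bp of it.

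Regions that held a site were a small part of shared active chromatin. Of the 47984 *H3K27ac* regions with a peak in all 6 dogs, 4249 (8.86%) held at least 1 site and are called host regions. Each site was counted in 1 region only, also the 66 that overlapped more than 1. A second region met by such a site could thus count as without a site. They had a median length of 6223 bp, against 4000 bp for the 43735 without a site. The share that held a site was 5.92% of regions below 1000 bp, 4.80% at 1000 to 2000 bp, 6.64% at 2000 to 5000 bp, 8.66% at 5000 to 10000 bp, 16.1% at 10000 to 20000 bp, 29.9% at 20000 to 50000 bp and 49.2% above 50000 bp. Per Mb of acetylated sequence the order differed. There were 81.9 sites per Mb in regions below 1000 bp, 20.2 at 2000 to 5000 bp and 13.5 to 15.1 in every class from 5000 bp upwards. Long regions thus held a site more often without being denser in sites. A site counts from an overlap of 1 bp, so the values of short regions include sites that reach beyond them. All *E2F1* regions below 2 kb were also densest there, with 851 per Mb below 1000 bp and 522 to 644 in the classes from 5000 bp upwards.

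Host regions were more strongly acetylated. The strongest *H3K27ac* peak in a host region had a median fold enrichment of 6.01, 5.73 and 6.72 for ancestral dogs 1 to 3 and of 5.84, 6.92 and 5.71 for derived dogs 1 to 3. In shared regions without a site the medians were 3.78, 3.81 and 4.01 for the ancestral and 3.81, 3.95 and 3.79 for the derived dogs. The difference was 2.29 ± 0.445 in fold enrichment, positive in all 6 dogs (SD, n = 6; exact two-sided sign-flip test, p = 0.03125). On percentiles within the list, hosts were 20.1 ± 2.40 points higher (exact sign-flip test, p = 0.03125, n = 6 dogs). The strongest peaks of hosts were also wider, with medians of 2565 to 4163 bp over the dogs against 1797 to 2292 bp. Among shared regions of middle length, between the quartiles of the hosts, the difference in fold enrichment was 1.89 ± 0.407 and again positive with p = 0.03125 (exact sign-flip test, n = 6 dogs).

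Across sites, the strength of *E2F1* did not follow that of the *H3K27ac* host region. Spearman's rho between the *E2F1* fold enrichment of a site and the *H3K27ac* fold enrichment of its host was 0.00781, −0.0473 and 0.0475 for ancestral dogs 1 to 3 and 0.0428, 0.0702 and −0.0144 for derived dogs 1 to 3, over 3071 to 4783 sites. With the length of the host, rho ran from −0.148 to −0.0725. These values describe sites that share libraries and host regions. The host value is that of its strongest peak, which can lie away from the site, since hosts had a median length of 6223 bp. Acetylation at the site itself was not compared.

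*E2F1* fold enrichment was higher in the sites than at sites outside *H3K27ac*, but rank was not. Median fold enrichment was 5.14, 6.04 and 7.65 for ancestral dogs 1 to 3 and 4.19, 6.47 and 5.45 for derived dogs 1 to 3. Outside *H3K27ac* it was 4.52, 5.12 and 5.60 for the ancestral and 4.09, 4.92 and 4.76 for the derived dogs. The difference was 0.989 ± 0.700, positive in all 6 dogs (SD, n = 6; exact two-sided sign-flip test, p = 0.03125), and it ranged from 0.107 in derived dog 1 to 2.05 in ancestral dog 3. With sites chosen anew among 5 dogs, the difference in derived dog 1 was −0.00884 without ancestral dog 1 and 0 without derived dog 2 (exact sign-flip test, p = 0.125 for each, n = 5 dogs), so its sign in that dog depended on the lists used. Measured as the percentile of −log10 q within the list, the difference had the opposite sign, −1.44 ± 7.78 points, with 4 of 6 dogs higher and derived dog 1 lower by a difference of −16.4 points (exact sign-flip test, p = 0.906, n = 6 dogs). The call therefore holds for fold enrichment and is absent for the rank by q. Its size moved with the choice of sites, to 0.632 below 1 kb, 1.58 at the stricter q limits and 1.97 with a peak required in all 6 dogs.

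Sites of all 6 dogs had higher *E2F1* enrichment than sites of 5, in every dog. Medians for the former were 5.57, 6.94 and 9.36 for ancestral dogs 1 to 3 and 4.31, 7.63 and 5.98 for derived dogs 1 to 3. For the latter they were 5.00, 5.61 and 6.84 for the ancestral and 4.04, 5.94 and 5.15 for the derived dogs. Since the number of dogs was part of the choice, this is a description. The *H3K27ac* medians of their hosts differed by less, for example 6.22 and 6.32 in ancestral dog 1 and 6.19 and 6.02 in derived dog 1.

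Most sites stood alone in their *H3K27ac* region, and a minority clustered. Of the 4249 host regions, 3786 held 1 site, 376 held 2, 63 held 3, 19 held 4, 3 held 5, 1 held 7 and 1 held 8. The 463 regions with 2 or more held 1047 sites (21.7%). Median length was 5525.5 bp for hosts with 1 site and 17114 bp for hosts with 2 or more.

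The region with most sites was chr9:22442608-22502036 (CanFam3.1), 59429 bp long, with 8 sites of which 3 had peaks in all 6 dogs. The sites covered 19.8% of it, with gaps from 66 to 19400 bp. All 8 were called in each dog except derived dog 1, which had 3. Its *H3K27ac* fold enrichment was 12.6, 13.2 and 13.6 for ancestral dogs 1 to 3 and 12.4, 15.3 and 11.0 for derived dogs 1 to 3, above the host median of every dog. The second was chr9:23684326-23760577, 76252 bp long, with 7 sites and *H3K27ac* fold enrichment of 13.0 to 19.4 over the dogs. Among the 3 regions with 5 sites, chr12:10363313-10404419 came first in genome order. It was 41107 bp long, with *H3K27ac* fold enrichment from 14.9 to 19.8. Median *E2F1* fold enrichment in these 3 regions was 4.25 to 6.93 over the dogs. It was below the same dog's median of all sites in 3 of 6 dogs in the first region and in 5 of 6 dogs, all but derived dog 1, in each of the others, for example 5.76 against 7.65 for ancestral dog 3 in the second.

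Spacing showed the same mixture. The gap to the nearest other site had a median of 33949 bp, with quartiles of 8630 and 123003 bp. It was at most 10 kb for 1322 sites (27.4%), and 837 of these (63.3%) had such a neighbour in the same *H3K27ac* region. Within 100 kb, 3477 sites (71.9%) had a neighbour, and 159 (3.29%) had none within 1 Mb. For the 957 sites outside *H3K27ac* the median gap was 180078 bp, with fewer sites to be neighbours. A neighbour of their own kind lay within 1 kb for 10.8% of them, within 5 kb for 17.0% and within 10 kb for 22.2%, against 7.18%, 17.8% and 27.4% of the sites in shared *H3K27ac*. The order thus turned between 1 and 5 kb. The closest pair was chr27:1847709-1848738 and chr27:1848754-1849513, 15 bp apart. Next were chr8:71281566-71282248 and chr8:71282267-71283920, 18 bp apart, and chr5:21181248-21182604 and chr5:21182644-21183606, 39 bp apart. In all 3 pairs 1 member was called in 6 dogs and the other in 5, and a slightly wider merging distance would have joined them.

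Sites were unevenly spread over the genome. Each overlaps a shared *H3K27ac* region by choice, and whether sites were more concentrated than these regions was not tested. Of 2057 windows of 1 Mb that held a shared *H3K27ac* region or a site, 1207 (58.7%) held a site, and the 188 fullest held 50.1% of all sites. In 118 windows there were 10 or more, 1862 sites in all (38.5%). The densest window was CFA6 from 17 to 18 Mb, with 36 sites in 27 host regions. It was followed by CFA5 from 32 to 33 Mb with 35 sites in 26 host regions and CFA35 from 24 to 25 Mb with 29 sites in 23 host regions. These windows held 67, 60 and 45 shared *H3K27ac* regions and 0, 2 and 1 sites outside *H3K27ac*.

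Chromosomes differed in sites, also relative to their *H3K27ac* regions. CFA9 held 401 sites (8.30%), CFA1 397, CFA20 305 and CFA6 284, and CFA36 held the fewest, 16. Per 1000 shared *H3K27ac* regions there were 185 sites on CFA9, 165 on CFA20 and 151 on CFA26, with a median over the 38 autosomes of 82.1 and a minimum of 31.2 on CFA36. Per Mb of shared *H3K27ac* the order differed and the range was narrower, with 23.4 sites on CFA20, 23.0 on CFA18 and on CFA1, 22.8 on CFA9 and 19.97 on CFA26, a median of 14.0 and a minimum of 7.13 on CFA36. Over the 38 autosomes, sites and sites outside *H3K27ac*, each per Mb of chromosome up to the end of its last peak, had a Spearman's rho of 0.562, a description of regions from the same libraries. Gene content and base composition were not analysed here.

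The sites with the highest rank in every list were extreme and unlike the rest. At chr5:82360279-82360951 the *E2F1* fold enrichment was 630, 8895 and 14870 for ancestral dogs 1 to 3 and 5792, 12115 and 22211 for derived dogs 1 to 3, and at chr20:57395297-57395794 it was 412, 7892 and 8646 for the ancestral and 2080, 6797 and 14020 for the derived dogs. At chr8:66603534-66604056 it was 142, 169 and 378 for the ancestral and 191, 486 and 382 for the derived dogs. Summits at these 3 sites lay within 2, 1 and 17 bp. Their merged *H3K27ac* regions had nearly the same borders as the *E2F1* regions, with lengths of 624, 471 and 527 bp against 673, 498 and 523 bp. *H3K27ac* fold enrichment was also extreme at the first of them, 26.7, 478 and 183 for ancestral dogs 1 to 3 and 225, 98.6 and 44.7 for derived dogs 1 to 3, and at the second, 16.1, 290 and 111 for the ancestral and 87.5, 66.9 and 45.0 for the derived dogs. At the third it was 6.80 to 34.6 over the dogs. The authors kept reads that map to several places, and whether repeated sequence takes part in these values was not tested. For their differential analysis they removed peak sites enriched in input DNA. That step was not applied here, and whether it would remove these sites was not tested. Among all sites, 4 had a fold enrichment over 100 in any dog.

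The next in rank had very high −log10 q with fold enrichment that was mostly low. At chr6:1302-3225 and chr6:310-1094, at the very start of CFA6, fold enrichment was 2.95 to 3.54 and 2.78 to 3.57 over the 6 dogs, while −log10 q was 535 to 1218 and 380 to 1270. Both lay in 1 *H3K27ac* region whose fold enrichment was only 1.17 to 1.46. At chr6:61472006-61472233, 228 bp long, fold enrichment was 3.11 to 6.70 and −log10 q 219 to 1137. The value of 6.70 was that of derived dog 1, above its median of 4.19 over all sites. Without the 4 sites over 100-fold, and the 3 such sites outside *H3K27ac*, the difference in fold enrichment was 1.00 and the other comparisons moved as little.

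Sites with more usual values were found by a limit set after the values were seen, a fold enrichment of at least 8 and at most 100 in every dog, which 4 sites met. At chr11:387805-389645 fold enrichment was 9.86, 12.6 and 13.9 for ancestral dogs 1 to 3 and 10.2, 16.0 and 9.86 for derived dogs 1 to 3. It lay in an *H3K27ac* region of 3464 bp, 1595 bp from the nearest edge. At chr18:55385411-55386046, 636 bp long, it was 15.6, 12.1 and 15.9 for the ancestral and 11.0, 9.50 and 24.4 for the derived dogs, with all 6 summits within 72 bp. The others were chr26:22103328-22104839, at 8.82 to 11.5 over the dogs, and chr21:40770060-40771669, at 8.67 to 13.8.

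At the other end, the most scattered summits of sites with 6 dogs were 1805 bp apart at chr14:35366475-35368441, 1762 bp at chr26:16176564-16178529 and 1638 bp at chr10:26947555-26949553. These sites held 7, 7 and 9 peaks and were 1967, 1966 and 1999 bp long, close to the limit of 2 kb. The last lay in an *H3K27ac* region of 29723 bp with fold enrichment of 12.2 to 15.4.

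On CFA6 between 5 and 7 Mb, the interval around the TE, 9 sites were found, all above 6 Mb. The site nearest to the TE was chr6:6045160-6047014, 291177 bp above it, called in 5 dogs, and the nearest below was chr6:1899337-1900015, 3853782 bp away. At chr6:6045160-6047014 *E2F1* fold enrichment was 5.01 and 5.60 in ancestral dogs 2 and 3 and 4.48, 7.05 and 4.35 in derived dogs 1 to 3. Only chr6:6594753-6595672 was called in all 6 dogs, with a fold enrichment of 5.14, 7.98 and 9.70 for ancestral dogs 1 to 3 and 5.14, 7.98 and 7.94 for derived dogs 1 to 3, and its median summit lay outside its *H3K27ac* region, with a distance to the edge of −276.5 bp. Over all 9 sites fold enrichment was 3.03 to 14.8 in ancestral and 3.14 to 8.86 in derived dogs. The highest ancestral value was that of ancestral dog 2 at chr6:6708557-6709601, and the highest derived value that of derived dog 2 at chr6:6331297-6333271. Of the 8 sites of 5 dogs, the missing dog was ancestral in 5 and derived in 3, while over all 4501 *E2F1* regions of 5 dogs it was ancestral in 30.1%. These are 8 sites, and nothing was tested on them.

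The number of sites called was 4257, 4643 and 4731 for ancestral dogs 1 to 3 and 3071, 4783 and 4376 for derived dogs 1 to 3. The mean was 4544 ± 252 in ancestral and 4077 ± 894 in derived dogs (SD, n = 3 each), a difference of −467 sites. The presence of a peak in each dog chose the sites, and a site could lack at most 1 dog, so these numbers are a description with no test. Derived dog 1 set the sign of the difference, which was 126 in the opposite direction without that dog, with sites chosen anew among the other 5. The list of derived dog 1 held 107268 *E2F1* peaks on the autosomes, within the range of 84014 to 160157 over the other lists, and 3.12% of its peaks fell in the sites, against 3.38% to 6.05% in the other lists. With the same number of top peaks taken from each list, the difference between genotypes in sites called was −495. The strongest peak had a q value below 0.0005 in 1188 of its 3071 called sites (38.7%), against 69.9% to 89.7% of the called sites in the other dogs.

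Missing peaks in sites of 5 dogs followed the same list. Of 3137 such sites the missing dog was derived in 2269 (72.3%) and ancestral in 868 (27.7%), and it was derived dog 1 alone in 1762 (56.2%). Over all 4501 *E2F1* regions with a peak in 5 dogs, of any length and place, the missing dog was derived in 3146 (69.9%). Since 3137 of these 4501 are the sites themselves, nothing is read from the closeness of the shares. Among the 628 sites of 5 dogs outside *H3K27ac* the missing dog was derived in 375 (59.7%), and derived dog 1 in 233 (37.1%). Which dog lacks a peak is part of how the sites were chosen, and the shares were not tested.

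Rank within the list did not separate the genotypes. The median percentile over the sites was 83.4, 91.8 and 95.5 for ancestral dogs 1 to 3 and 70.6, 95.8 and 87.6 for derived dogs 1 to 3, so the groups overlapped. Each median covers only the sites called in that dog, 3071 in derived dog 1 and 4257 to 4783 in the others. Derived minus ancestral, the means differed by −5.55 points (exact two-sided permutation test, p = 0.7, n = 3 per genotype; the smallest possible p is 0.1), and without derived dog 1 it was 2.87 (exact permutation test, p = 0.7, n = 5 dogs). With all dogs it was −0.840 at the stricter q limits (exact permutation test, p = 0.8, n = 3 per genotype) and −3.61 with the same number of top peaks from each list (exact permutation test, p = 0.7, n = 3 per genotype). Over sites with a peak in all 6 dogs, the same for every dog, it was −5.93 (exact permutation test, p = 0.7, n = 3 per genotype). Of the 1696 sites of all 6 dogs, 35 (2.06%) ranked higher in every derived dog than in any ancestral dog, against 64 of all 2771 *E2F1* regions of 6 dogs (2.31%). The opposite held in 73 (4.30%), against 100 of 2771 (3.61%). The 1696 sites are part of the 2771. Among the 329 regions of 6 dogs outside *H3K27ac* the shares were 5.17% and 2.13%. None of these shares was tested.

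The widest gaps between genotypes are given as a description, since they were chosen for it. At chr13:24215858-24216759 the percentiles were 48.6, 55.7 and 30.3 for ancestral dogs 1 to 3 and 98.5, 79.5 and 90.1 for derived dogs 1 to 3, while the percentiles of the *H3K27ac* host overlapped, at 98.3 to 99.7 and 98.5 to 99.7. The next with higher derived ranks were chr1:114591358-114592658 and chr31:27827701-27828564. At chr6:42254988-42255755 the percentiles were 72.0, 90.0 and 71.4 for the ancestral and 35.8, 11.9 and 14.7 for the derived dogs. It was followed by chr5:81216210-81217528 and by chr14:45190219-45191669, where the percentiles were 98.8, 99.4 and 97.5 for the ancestral and 52.9, 74.0 and 74.1 for the derived dogs. At the last site the *H3K27ac* percentiles overlapped between genotypes, at 62.6 to 86.0 and 77.8 to 87.4.

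The length limit passed through a continuous range. Just inside it were chr10:26947555-26949553, at 1999 bp, and chr10:67980488-67982485 and chr2:64677760-64679757, at 1998 bp each, with summits 1638, 1501 and 1480 bp apart. Just outside were chr1:107689019-107691018 and chr1:113052437-113054436, at 2000 bp each, and chr10:26502541-26504541, at 2001 bp, with summits 589, 1066 and 890 bp apart. *E2F1* fold enrichment was 3.39 to 8.25 in the former and 2.93 to 13.4 in the latter. In all, 780 regions of 2 kb or more met the rest of the rule.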

How the data were processed

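The authors extracted unique molecular identifiers, trimmed reads with Trim Galore, aligned them with bowtie to CanFam3.1, kept reads mapped to several places, collapsed duplicates, and ran macs2 on each dog's library separately. The submitters' processing notes give Trim Galore 0.0.6, Bowtie 1.1.2 and MACS2 2.2.0, while the methods name a later bowtie, so the aligner's version is unsettled. The deposited narrow (*E2F1*) and broad (*H3K27ac*) lists give fold enrichment, a ratio over local background, and significance as deposited −log10 q values of macs2. The lists begin at a −log10 q of 1.30 for *E2F1* and 1.00 for *H3K27ac*, and all listed peaks were used. The authors' methods name a stricter q of 0.0005 for *E2F1* and significance below 0.05 for *H3K27ac*, which were tried as an alternative. The lists are not normalized between dogs, so fold enrichment was tested within dogs only and is listed side by side for several dogs as a description, and percentiles were taken within a list.

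Peaks were merged where they overlapped or touched. For a dog with several peaks in a region, the peak of highest −log10 q stood for it. Within-dog differences in medians were tested over dogs with exact two-sided sign-flip tests (64 sign assignments), and genotypes with exact two-sided permutation tests of the difference in means (20 assignments). Regions are not replicates and entered no test. Calls per dog, which chose the sites, are given with no test. Coordinates are 1-based on CanFam3.1. The software was numpy 2.4.6, scipy 1.17.1 and pandas 2.3.3 under Python 3.11.15, and the merging and tests were tested on simulated data.

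Named regions are, by rule, the 6 sites with a peak in every dog and the highest lowest percentile, the 3 with the tightest and the 3 with the most scattered summits among sites of 6 dogs, the 3 host regions with most sites, the 3 closest pairs, sites on CFA6 from 5 to 7 Mb, 3 regions on each side of the length limit, and 3 per direction with the widest gap between genotypes. The members, lists and rules were chosen with earlier results of these data known. Input libraries were not analysed here. No annotation or sequence of CanFam3.1 was used here, so transcription start sites, genes, cell type markers and motifs at the sites were not analysed.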

Additional observations from a re-analysis of the deposited data

Results flagged for a closer look

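Chromosome X was not part of the choice of sites. By the same rule 106 regions on it had *E2F1* peaks in 5 or 6 dogs, a merged length below 2 kb and overlap with an *H3K27ac* region of all 6 dogs. They came from 151 recurrent regions below 2 kb, of which 32 overlapped no *H3K27ac* peak. Chromosome X held 1328 shared *H3K27ac* regions, which gives 79.8 sites per 1000, within the range of the autosomes. All dogs were male and carry a single X.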

How the results depend on the processing

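Of 105 values recomputed under alternatives, calls per dog aside, 73 kept their direction and their side of the threshold, or for the count of sites stayed within 1.5 times. Among the 63 that kept all dogs, 58 did. The count of 4833 sites fell to 2175 with q below 0.0005 for *E2F1* and 0.05 for *H3K27ac*, to 1696 with a peak in all 6 dogs and to 1833 below 1 kb, which are stricter by construction. *E2F1* fold enrichment against sites outside *H3K27ac* turned from 0.989 to −1.44 points on percentiles, and the summit distance shrank to 0.333 bp at 700 to 1100 bp, a range added after seeing the data; the causes were not tested. Peak width, which did not pass 0.05, shrank from 107 to 44.5 bp below 1 kb and to 23.1 bp in that range.

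With each dog left out, sites needed a peak in 4 or 5 of 5 dogs and the smallest sign-flip p is 0.0625, so no within-dog comparison could pass 0.05. *E2F1* fold enrichment did not reach that smallest p without ancestral dog 1 or without derived dog 2 (exact sign-flip p = 0.125 for each), where derived dog 1 no longer had a positive difference. Peak width reached it only without derived dog 1, with p = 0.125 in the other exact tests. The count ran from 5193 to 8258. The differences ran from 0.725 to 0.829 for *E2F1* fold enrichment, from 34.5 to 49.4 bp for summit distance, from 98.3 to 107.2 bp for peak width, from −0.0599 to −0.0506 for position and from 2.19 to 2.32 for *H3K27ac* fold enrichment. Sites called per dog, derived minus ancestral, ran from −1071 to 126 and percentiles from −10.6 to 2.87 points, both positive only without derived dog 1. With a peak required in all 6 dogs, sites called per dog are equal and gave no value.

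With dogs paired by replicate number (replicate block), the differences were again −467 sites, with no test, and −5.55 points, with p = 0.5 (exact sign-flip test over 3 pairs; smallest p 0.25). Deviations from genotype means over the sites of 6 dogs correlated at −0.00228, 0.0341 and −0.0163 for same-numbered dogs. These values show no pairing by number at these sites, and 3 pairs cannot exclude one. Lists without reads set no depth for any value here, and a site missing in a list may be bound.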
